A study of Mus musculus with 141 samples.

Results

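The 7 mature miRNAs described here are mmu-miR-126a-3p, mmu-miR-143-3p, mmu-miR-145a-5p, mmu-miR-199a-5p, mmu-miR-199b-5p, mmu-miR-221-3p and mmu-miR-222-3p (written below without the species prefix), which are known from blood vessels and from mesenchymal cells such as fibroblasts. They were taken by name from the 1907 mature miRNAs listed for each brain region, by a rule that uses no measured value. Earlier results of these data were known when the members were chosen. All 7 were measured in every library. Small RNA libraries were made from the interpeduncular nucleus (IPN), the medial habenula (MHb) and the nucleus accumbens (NAc) of male C57BL/6J mice that were 6 weeks old when treatment began, with 5 libraries for each region and treatment and punches from 4 brains pooled in each library. TA mice drank tartaric acid for 6 weeks, Nic mice drank nicotine tartrate (200 µg/ml nicotine base) for 6 weeks, NAWD mice had the same nicotine treatment followed by 48 h of spontaneous withdrawal, NLWD mice had it followed by 4 weeks of withdrawal, and TAL mice drank tartaric acid for 10 weeks as the age-matched control of NLWD mice. All 5 treatments included saccharine (3 g/L) in the drinking water, so none of the groups drank plain water. Levels are given as RPM, the reads of a miRNA scaled to a fixed total of miRNA reads per library.

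miRNAs are short RNAs that guide Argonaute proteins to partly complementary mRNAs and lower their translation or stability, mainly through the seed at bases 2 to 8. In the vessel wall, miR-126 is the classical endothelial miRNA and is encoded in an intron of Egfl7, a gene of endothelial cells, while miR-143 and miR-145 come from one transcript of smooth muscle cells and pericytes. The miR-199a and miR-199b precursors lie antisense within dynamin genes and are known from mesenchymal and fibroblast lineages, and miR-221 and miR-222 come from one X-linked cluster, act in the proliferation of vascular smooth muscle and endothelium, and are also expressed outside vessels.

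Mature sequences from RefSeq (GRCm38.p6) were matched for 4 of the 7 miRNAs. The seeds decide which of them share targets, and the whole sequences decide which reads can be told apart. They are shown with the seed in capitals.
miR-126a-3p: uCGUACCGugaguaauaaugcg
miR-199a-5p: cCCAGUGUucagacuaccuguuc
miR-221-3p: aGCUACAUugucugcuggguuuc
miR-222-3p: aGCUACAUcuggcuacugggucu
miR-199a-3p and miR-199b-3p: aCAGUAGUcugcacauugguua
miR-126a-3p lies at chr2:26591402-26591423 on the plus strand. miR-199a-5p has 2 loci, at chr1:162217844-162217866 on the plus strand (Mir199a-2) and at chr9:21496537-21496559 on the minus strand (Mir199a-1). miR-221-3p and miR-222-3p lie close together on the minus strand of the X chromosome, at chrX:19146307-19146329 and chrX:19146901-19146923. They share the seed GCUACAU and their first 8 bases and differ after that, so that they were counted as separate miRNAs. The opposite arms miR-199a-3p and miR-199b-3p have the same sequence at chr1:162217883-162217904, chr9:21496498-21496519 and chr2:32318524-32318545, so their reads cannot be assigned to one precursor, whereas the members miR-199a-5p and miR-199b-5p were counted as separate miRNAs.

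The 75 small RNA libraries held 2788281 to 33690462 miRNA reads, and the fewest reads behind any value of a member were 36 (miR-199b-5p in NAc). The lowest depth of NAWD libraries lay above the highest of TA and Nic libraries in IPN (13478993 to 20003529 reads against 6459074 to 12393851 in TA and 7334488 to 11595725 in Nic) and in MHb (5520204 to 8751598 reads against 2788281 to 4452432 and 2845382 to 4885985). IPN TA replicate 5 stood apart in the epithelial miR-200a-3p, at 976.1 RPM. The other TA libraries held 9.28, 17.7, 20.2 and 56.4 RPM and the Nic and NAWD libraries 5.15 to 74.3 RPM. Over all miRNAs, its chi-square per degree of freedom against the reads of its group was 227.9 to 271.6. Other libraries lay farther from their group by this measure. NAc TAL replicate 4 lay at 1919 to 2113 (other pairs of that group 60.9 to 231.0). IPN NLWD replicate 3 lay at 947.0 to 2689 (112.4 to 523.6) and IPN Nic replicate 2 at 749.0 to 922.4 (108.3 to 522.8). The region labels were checked in 66 mRNA libraries of the same design. The habenular transcript Tac2 averaged 636.5 TPM (transcript abundance scaled to a fixed total per library) in MHb, 42.5 TPM in NAc and 3.42 TPM in IPN. The raphe and IPN genes Slc6a4 and Chrna5 averaged 16.7 and 2.67 TPM in IPN against 0.0255 and 0.133 TPM in MHb and 0.0575 and 0.0329 TPM in NAc. The other IPN markers did not separate IPN from NAc, with Gad1 at 168.0 and 267.2 TPM and Nkx2-1 at 2.44 and 2.07 TPM, but both were lower in MHb (14.5 and 0.0214 TPM). The striatal gene Ppp1r1b averaged 843.5 TPM in NAc, 77.4 TPM in MHb and 25.7 TPM in IPN. MHb libraries also carried the choroid plexus transcript Ttr (27626 TPM on average, against 34.4 TPM in IPN and 1.72 TPM in NAc).

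Together these miRNAs made up 4.01% of miRNA reads in IPN of TA mice, 2.09% in NAc and 1.41% in MHb. miR-143-3p ranked 6th by mean level among all miRNAs in IPN, 28th in MHb and 41st in NAc.

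**Figure D1:**
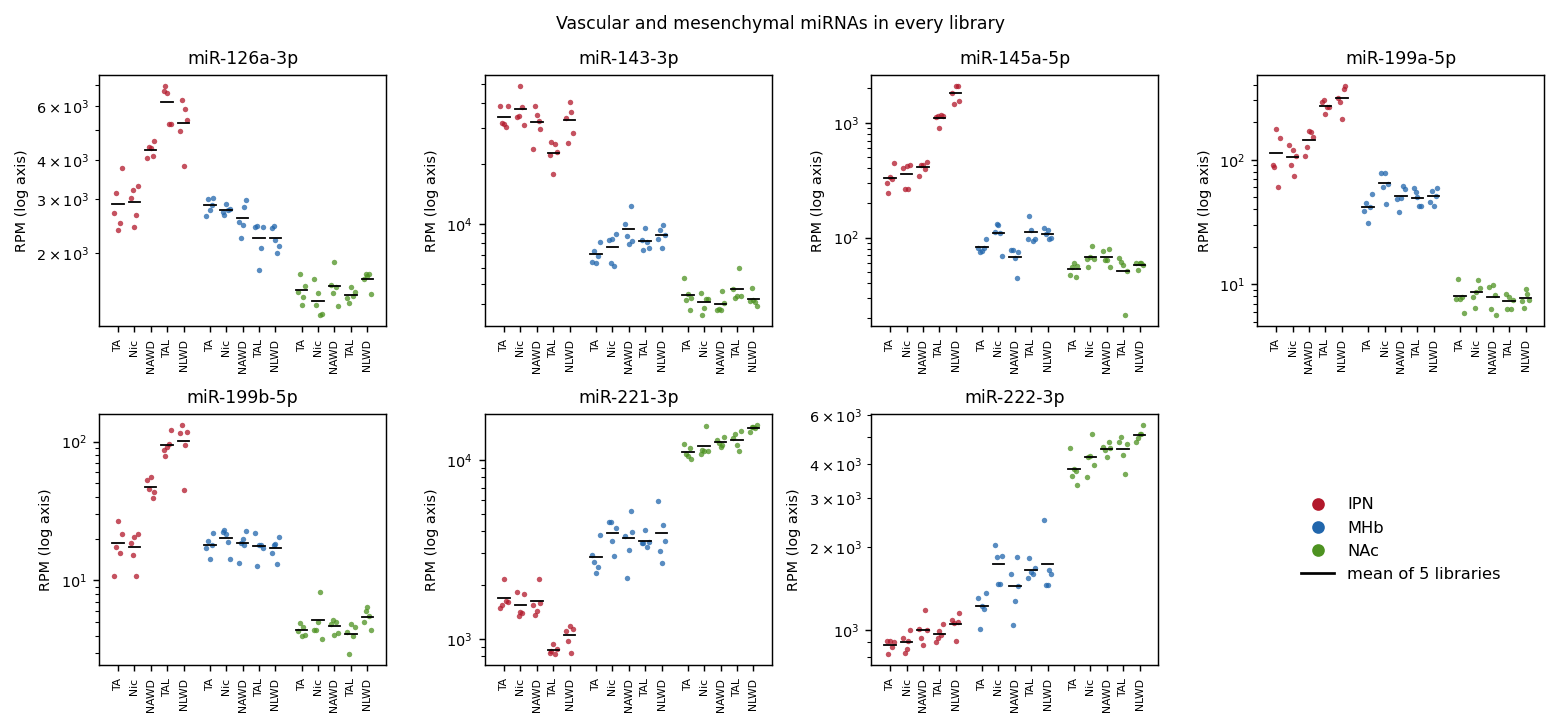
RPM (log axis) of each of the 7 miRNAs in all 75 small RNA libraries, grouped by region and treatment, with 1 point per library and a line at the mean of 5 libraries. The first 5 miRNAs were highest in IPN and lowest in NAc in TAL mice, and miR-221-3p and miR-222-3p ran the other way, with 13000.2 and 4512 RPM in NAc against 865.2 and 968.9 RPM in IPN.

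miR-143-3p, of smooth muscle and pericytes, was the most abundant member in IPN and MHb of TA mice, whereas in NAc miR-221-3p was (11056 against 4402 RPM on average). In IPN it measured 38549, 31724, 31507, 30334 and 38848 RPM in the 5 TA libraries. In MHb of TA mice it measured 6473, 7319, 6408, 6949.7 and 8092 RPM, and in NAc 5371, 4191, 4452, 3742 and 4253 RPM. No TA library of one region overlapped with those of another region for this miRNA. miR-145a-5p, from the same transcript, was far less abundant at 329.6 ± 74.8, 82.1 ± 8.62 and 53.0 ± 6.32 RPM in IPN, MHb and NAc of TA mice (mean ± SD, n = 5).

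In TA mice, 5 of the 7 miRNAs differed between MHb and IPN at an adjusted p under 0.01 (limma on log2(RPM + 1), Benjamini-Hochberg over 859 miRNAs), against 22.9% of all miRNAs tested. miR-143-3p was lower in MHb by a log2 difference of -2.28 (SE 0.10, limma adjusted p = 1.06e-13), miR-145a-5p by -1.97 (SE 0.14) and miR-199a-5p by -1.32 (SE 0.23, adjusted p = 0.000114). miR-221-3p (log2 difference 0.75, SE 0.12) and miR-222-3p (0.46, SE 0.10) were higher in MHb, with no overlap of libraries for any of these 5, where 23.4% of all miRNAs did not overlap. For miR-126a-3p and miR-199b-5p the 2 regions overlapped in TA mice, with limma adjusted p of 0.975 and 0.958.

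Against NAc, all 7 members passed the test in both MHb (37.6% of all miRNAs passed) and IPN (35.6% passed) of TA mice. Among the members, miR-199a-5p showed the largest IPN excess, with a log2 difference of 3.58 (SE 0.23, limma adjusted p = 2.99e-11) from 8.01 ± 1.83 RPM in NAc, and miR-221-3p the largest deficit at -2.72 (SE 0.12). The MHb against NAc difference of miR-145a-5p (log2 0.62, SE 0.14, adjusted p = 0.000686) was the one region call that other settings ended, with adjusted p of 0.0199 under quantile normalization, 0.0106 under TMM scaling and 0.0153 in edgeR. In TAL mice all 7 members passed in all 3 pairs of regions, where 51.6% (MHb against IPN), 31.1% (MHb against NAc) and 56.3% (IPN against NAc) of 1034 miRNAs passed.

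Marker transcripts of vessels and connective tissue were also unequal between regions. The summed TPM of 8 fibroblast genes (such as Col1a1 and Dcn) was 162.1 to 820.8 in IPN, 82.6 to 460.7 in MHb and 10.2 to 37.6 in NAc. Most of this sum came from Igf2, which averaged 318.1, 155.6 and 14.5 TPM in these regions. The summed TPM of 10 endothelial genes (such as Cldn5 and Flt1) was 56.1 to 649.4 in IPN, 48.8 to 133.0 in MHb and 59.2 to 278.4 in NAc. Cldn5 and Ly6c1 had the highest means of that list in each region (210.8 and 86.7 TPM in IPN). The summed TPM of 10 mural genes (such as Acta2 and Pdgfrb) was 47.2 to 262.3, 14.8 to 40.1 and 21.9 to 101.0. These sums and means cover the libraries of all 5 treatments. In TA mice alone, the fibroblast sum was 288.4 to 745 in IPN, 141.5 to 230.2 in MHb and 25.6 to 37.6 in NAc. The endothelial sum was then 310.6 to 646.3, 55.0 to 110.05 and 120.25 to 207.35, and the mural sum 94.2 to 262.3, 14.8 to 37.4 and 30.2 to 62.7. The part of the marker transcripts in the region differences was not tested, and in bulk tissue fewer cells of a type and less RNA per cell cannot be told apart.

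In acute withdrawal 3 members passed the test in IPN. The endothelial miR-126a-3p and the mesenchymal miR-199a-5p and miR-199b-5p were higher in NAWD than in TA mice, 3 of 7 against 4.33% of 970 miRNAs that passed as higher and 4.64% in either direction. At an unadjusted p under 0.05 there were 4 of 7 members and 25.4% of all miRNAs. Of all 45 calls 42 were higher and 3 lower, a split that was 35 and 23 under TMM scaling, 27 and 23 under quantile normalization, 27 and 16 in edgeR and 28 and 32 in DESeq2, and the members kept their direction in each. The miRNA libraries of TA and Nic mice serve in more than one of the comparisons below, so these are not independent of each other, and p-values measure the spread between pooled libraries. The fits within a region removed factors of unwanted variation, which are trends estimated from differences among libraries of one group.

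miR-126a-3p measured 2688, 3120, 2370, 2498 and 3772 RPM in IPN of TA mice. In Nic mice it measured 3027, 3204, 2426, 2654 and 3305 RPM, and in NAWD mice 4078, 4421, 4384, 4140 and 4626 RPM. Every NAWD library was above every TA and Nic library, a separation upward also seen in 11.3% of miRNAs against TA and 7.73% against Nic. The log2 fold change was 0.66 (SE 0.12, limma adjusted p = 0.00109) against TA and 0.59 (SE 0.11, adjusted p = 0.000995) against Nic, where 2 of 7 members passed as higher, against 4.95% of all miRNAs higher and 5.88% in either direction. These 48 higher and 9 lower calls were 25 and 21 under TMM scaling, 18 and 24 under quantile normalization, 23 and 15 in edgeR and 26 and 26 in DESeq2. At an unadjusted p under 0.05 there were 3 of 7 members and 27.5% of all miRNAs. The call against TA was lost without TA replicate 4 (log2 0.62, adjusted p = 0.0122) and with no filter on low values (adjusted p = 0.0117). The call against Nic was lost with no filter (adjusted p = 0.0103) and with no factors of unwanted variation (0.01002).

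miR-199b-5p, read from the Dnm1 locus, measured 10.8, 17.4, 26.9, 15.7 and 21.7 RPM in TA mice. In Nic mice it measured 18.5, 15.2, 20.7, 10.8 and 21.7 RPM, and in NAWD mice 52.5, 45.8, 55.2, 39.5 and 43.4 RPM. The lowest NAWD library lay above the highest TA and Nic libraries. The log2 fold change was 1.19 (SE 0.18, limma adjusted p = 0.000234) against TA and 1.1403 (SE 0.16, adjusted p = 0.000113) against Nic, and the miRNA passed in all 11 other settings and in all 15 fits that left out 1 library, for both comparisons.

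miR-199a-5p measured 90.02, 88.0, 176.7, 60.2 and 150.4 RPM in TA mice and 107.4, 126.3, 171.1, 166.4 and 152.7 RPM in NAWD mice. The groups overlapped, and their mean levels were 113.0 ± 48.5 and 144.8 ± 27.2 RPM. After removal of the factors of unwanted variation the log2 fold change was 0.67 (SE 0.15, limma adjusted p = 0.00591), and without them it did not pass (adjusted p = 0.267). The call was also lost without TA replicate 1 (adjusted p = 0.0123), 2 (0.0155) or 4 (log2 0.40, adjusted p = 0.160), without NAWD replicate 2 (0.0121) or 3 (0.0323), and in 4 of the 11 other settings. Against Nic miR-199a-5p had a value of 0.35 (adjusted p = 0.0826), and it passed there without TA replicate 3, which gave 3 of 7 members.

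Without IPN TA replicate 5, the library rich in miR-200a-3p, the same 3 members passed in IPN NAWD against TA mice, with log2 fold changes of 0.76 for miR-126a-3p, 0.65 for miR-199a-5p and 1.23 for miR-199b-5p. In the fit with all libraries, to which the values that follow belong, the mural pair did not pass. There miR-145a-5p had a log2 fold change of 0.35 (limma adjusted p = 0.0765) and miR-143-3p of 0.07 (adjusted p = 0.816). miR-221-3p and miR-222-3p had values of -0.09 and 0.17. Over the 7 members the median log2 fold change was 0.35, against 0.06 over all miRNAs tested.

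**Figure D2:**
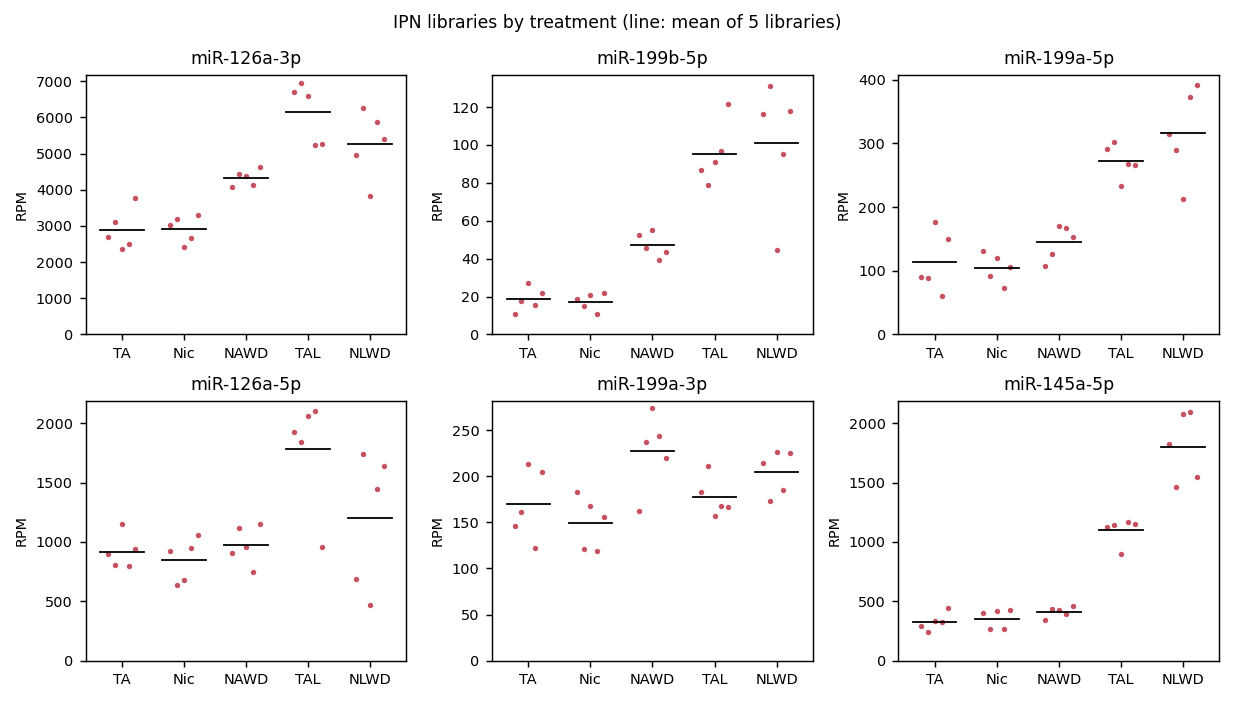
RPM (linear axis from 0) in IPN of miR-126a-3p, miR-199b-5p, miR-199a-5p, miR-126a-5p, miR-199a-3p and miR-145a-5p, with 1 point per library and a line at the mean of 5 libraries. The NAWD libraries of miR-126a-3p (4078 to 4626 RPM) and miR-199b-5p (39.5 to 55.2 RPM) lie above all TA and Nic libraries.

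Opposite arms of the same precursors gave a mixed picture in IPN NAWD against TA mice. The shared sequence of miR-199a-3p and miR-199b-3p rose by a log2 fold change of 0.65 (SE 0.13, limma adjusted p = 0.0030), from 169.5 ± 38.7 to 227.4 ± 41.1 RPM, and miR-143-5p rose by 0.74 (adjusted p = 0.0027), from 97.7 ± 28.7 to 167.4 ± 22.6 RPM. miR-126a-5p, the partner of miR-126a-3p, had a value of 0.09 (adjusted p = 0.783) at 918.4 ± 145 and 975.5 ± 165 RPM. The neighbour miR-214-3p had a value of 0.51 (adjusted p = 0.143), and the arm miR-221-5p had -0.35 (adjusted p = 0.0563) against TA and fell by 0.46 (adjusted p = 0.0056) against Nic.

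Vascular and connective tissue transcripts had lower sums in the IPN of NAWD than of TA mice, and so did other marker lists. In IPN the summed TPM of the 10 endothelial genes was 310.6 to 646.3 in TA, 408.0 to 649.4 in Nic and 145.7 to 337.8 in NAWD mice, with a higher NAWD than TA mean in 1 of 10 (Ly6c1). Cldn5 weighed most in this sum, with means of 339.4 TPM in TA and 117.5 TPM in NAWD mice. No endothelial, mural or fibroblast gene was at 0 in every IPN library. Kcnj8 (mural) and Lum (fibroblast) were at 0 in 3 of 20, and Tek and Kdr (endothelial) in 2 of 20. The mural sum was 94.2 to 262.3 in TA and 59.9 to 145 in NAWD mice (0 of 10 higher), and the fibroblast sum 288.4 to 745 and 174.0 to 529.5 (1 of 8 higher). Most of the fibroblast sum was Igf2, at means of 396.9 TPM in TA and 233.3 TPM in NAWD mice. The lower means were not particular to these lists, as 0 of 4 IPN, 0 of 4 MHb, 0 of 4 NAc and 0 of 7 choroid plexus genes had a higher NAWD than TA mean. The erythroid sum of globin genes and Alas2 had a higher range in NAWD, at 4943 to 16798 against 2000 to 9691 TPM, with 5 of 5 genes higher. Among the erythroid miRNAs miR-451a had a log2 fold change of 0.64 (limma adjusted p = 0.0225) and miR-144-3p of 0.57 (adjusted p = 0.0321), and none of the 5 erythroid and 4 leukocyte miRNAs passed. The part of the greater depth of NAWD libraries, of blood RNA and of vascular content in the values of the 3 members was not tested.

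The rise was tested against the other regions directly. For miR-126a-3p the NAWD against TA change in IPN exceeded that in MHb by a log2 value of 0.83 (SE 0.14, limma adjusted p = 0.000353) and that in NAc by 0.60 (SE 0.13, adjusted p = 0.00255). For miR-199b-5p the differences were 0.96 (SE 0.22, adjusted p = 0.00442) and 1.22 (SE 0.21, adjusted p = 0.000119). These 2 members were 2 of 7 in each difference, where 3.83% (IPN minus MHb) and 5.31% (IPN minus NAc) of 810 miRNAs passed. In MHb minus NAc 0 of 7 passed in limma, where 7.04% of miRNAs passed, and 1 of 7 had an unadjusted p under 0.05, against 27.3% of miRNAs. For miR-199a-5p the IPN minus NAc difference of 0.75 (SE 0.23) missed the threshold at an adjusted p of 0.0211. The miR-199b-5p difference from MHb was lost without IPN TA replicate 4 (adjusted p = 0.0177), IPN NAWD replicate 3 (0.0220) or MHb NAWD replicate 3 (0.0103), and the miR-126a-3p difference from NAc without IPN TA replicate 4 (0.0134) and with no factors of unwanted variation (log2 0.56, adjusted p = 0.0103). The miR-199a-5p difference from NAc passed without IPN TA replicate 3 (0.00191) or NAc TA replicate 5 (0.00507).

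With continued nicotine, no member passed in IPN (limma, Nic against TA, 0 of 7, 1 of 7 at an unadjusted p under 0.05 against 11.9% of all miRNAs, 0 by edgeR and by DESeq2), and 0% of 970 miRNAs passed. The log2 fold changes lay between -0.01 (miR-221-3p) and 0.32 (miR-199a-5p).

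**Figure D3:**
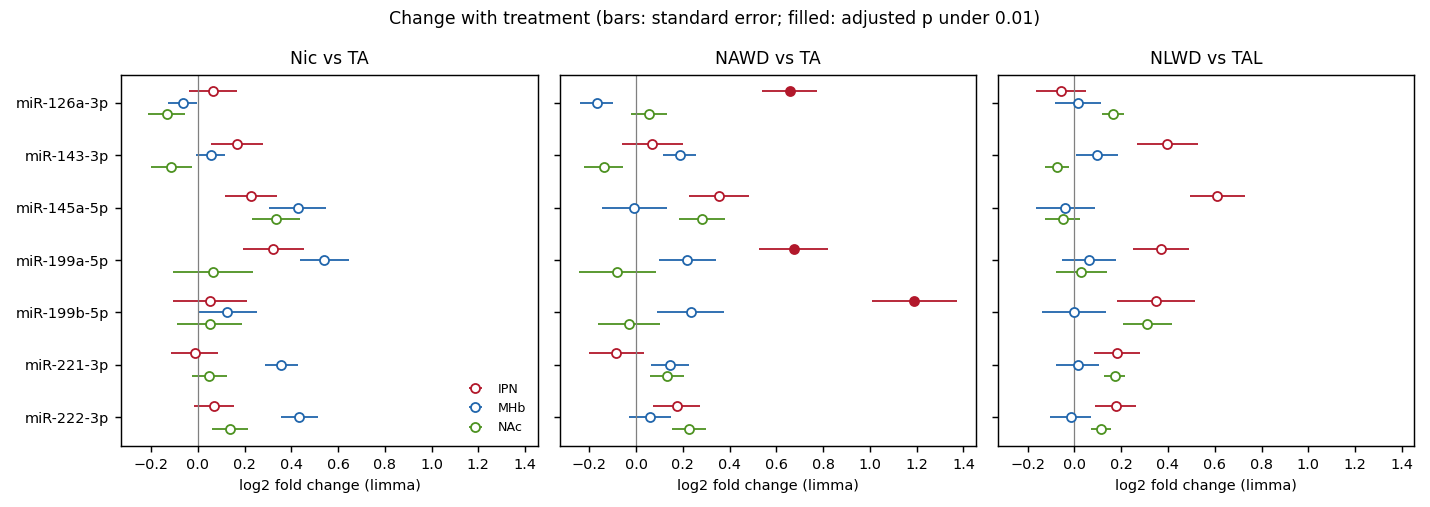
Log2 fold change (limma, on log2(RPM + 1), bars give the standard error) of the 7 miRNAs in Nic against TA, NAWD against TA and NLWD against TAL mice, by region; filled symbols passed at an adjusted p under 0.01. The 3 filled points are miR-126a-3p (0.66), miR-199a-5p (0.67) and miR-199b-5p (1.19) in IPN of NAWD mice.

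In MHb, no member passed with continued nicotine in limma, and miR-222-3p, miR-221-3p and miR-199a-5p lay just above the threshold. miR-222-3p measured 1304, 1011, 1225, 1195 and 1357 RPM in TA mice and 2035, 1843, 1463, 1461 and 1846 RPM in Nic mice, without overlap (0.358% of miRNAs separated so upward). Its log2 fold change was 0.43 (SE 0.08, limma adjusted p = 0.0102). miR-221-3p (0.36, SE 0.07) and miR-199a-5p (0.54, SE 0.11) each had an adjusted p of 0.0105, from levels of 2860.2 ± 574 to 3925 ± 690 RPM and of 41.9 ± 8.17 to 65.1 ± 14.3 RPM. miR-145a-5p had a log2 fold change of 0.43 (SE 0.12, adjusted p = 0.107).

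The limma count was 0 of 7 (with 0% of 838 miRNAs passing, and 4 of 7 members against 13.5% of miRNAs at an unadjusted p under 0.05). These shares are for limma alone, and none is given for edgeR and DESeq2. Both edgeR and DESeq2 on recovered reads called miR-199a-5p, miR-221-3p and miR-222-3p. They also passed in limma when certain libraries were left out: miR-221-3p and miR-222-3p without MHb TA replicate 5 (adjusted p = 0.00116), Nic replicate 3 (0.0044 and 0.00318) or Nic replicate 4 (0.00358), and miR-199a-5p without TA replicate 5 (0.00651) or Nic replicate 4 (0.00358). For miR-221-3p and miR-222-3p the IPN minus MHb difference of the nicotine effect was -0.37 (SE 0.12) and -0.36 (SE 0.12), with adjusted p of 0.213 and 0.184 (limma), so it did not pass. No member passed any of the 3 nicotine differences between regions (0% of 810 miRNAs, and, for IPN minus MHb, IPN minus NAc and MHb minus NAc, 2, 1 and 3 members at an unadjusted p under 0.05 against 13%, 9.51% and 15.2% of miRNAs).

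In withdrawal, miR-222-3p in MHb was lower than with continued nicotine, at 1597, 1042, 1271, 1837 and 1438 RPM in NAWD mice against the Nic values above, and the groups overlapped. Its log2 fold change was -0.38 (SE 0.09, limma adjusted p = 0.00472), 1 of 7 members where 3.7% of all miRNAs passed as lower and 7.04% in either direction. At an unadjusted p under 0.05 there were 4 of 7 members and 25.3% of miRNAs. The call was lost in 7 of 11 other settings, without Nic replicate 1 (adjusted p = 0.0244), 2 (0.0129) or 5 (0.0150) and without NAWD replicate 2 (0.0567), 3 (0.0242) or 4 (0.0113). miR-145a-5p had a value of -0.43 (SE 0.14, adjusted p = 0.0366) in that comparison and passed without Nic replicate 5 (0.00254) or NAWD replicate 1 (0.00573). Against TA no member passed (limma, 0 of 7 against 2.74% of all miRNAs, 2 of 7 against 18.4% at an unadjusted p under 0.05, 0 by edgeR and DESeq2).

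MHb marker transcripts differed in the same comparisons. The endothelial sum was 55.0 to 110.05 in TA, 58.2 to 102 in Nic and 107.0 to 133.0 TPM in NAWD mice, with 9 of 10 genes higher in NAWD than TA, and the mural sum was 14.8 to 37.4, 18.1 to 23.4 and 29.3 to 40.1 TPM (6 of 10 genes higher and 4 lower in NAWD than TA). The fibroblast sum was 141.5 to 230.2 in TA and 204.0 to 460.7 TPM in NAWD mice (8 of 8 genes higher), with Igf2 means of 163.3 and 245.7 TPM. All 7 choroid plexus and all 4 MHb marker genes also had a higher NAWD than TA mean, so that higher means were not particular to vascular or connective tissue genes. They were not general either, as 4 of 5 erythroid genes were lower and 1 higher. Of 4 NAc genes 2 were higher and 2 lower, and of 4 IPN genes 2 were higher and 1 lower. Between TA and NAWD mice miR-126a-3p had a log2 fold change of -0.17 (limma adjusted p = 0.184), at 2859 ± 158 RPM in TA and 2605 ± 291 RPM in NAWD mice. The part of these transcripts in the member values was not tested.

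In NAc no member passed under any of the 4 treatment comparisons. In Nic against TA and in NAWD against TA mice miR-145a-5p had log2 fold changes of 0.33 (SE 0.10, limma adjusted p = 0.124) and 0.28 (SE 0.10, adjusted p = 0.163), and miR-222-3p of 0.14 and 0.23 (SE 0.07, adjusted p = 0.130 for NAWD). In these comparisons 0.209%, 0.104% and, in NAWD against Nic, 0.209% of 957 miRNAs passed. The counts were 0 of 7 each, with 1, 2 and 1 members at an unadjusted p under 0.05 against 12%, 16.1% and 13.7% of miRNAs, and 0 by edgeR and DESeq2.

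Long withdrawal was compared with the age-matched TAL mice, and no member passed in any region. In IPN, miR-145a-5p measured 1129, 1142, 897.3, 1171 and 1152 RPM in TAL mice and 1823, 1465, 2076, 2095 and 1548 RPM in NLWD mice. All NLWD libraries were above all TAL libraries, a separation upward seen in 2.78% of 1044 miRNAs. The log2 fold change of 0.61 (SE 0.12) had a limma adjusted p of 0.0754. miRNA reads were 50.4% to 72.9% of the input reads of NLWD libraries and 65.9% to 73.5% of those of TAL libraries, and the part of this in the difference was not tested. miR-143-3p (0.40, SE 0.13, adjusted p = 0.232) and miR-199a-5p (0.37, SE 0.12, adjusted p = 0.213) also missed the threshold. The counts were 0 of 7 in limma, edgeR and DESeq2, with 3 of 7 against 12.2% of miRNAs at an unadjusted p under 0.05 and 0% of all miRNAs passing.

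In MHb (limma, 0 of 7, 0 at an unadjusted p under 0.05 against 6.32% of miRNAs, 0% of all passing) the values lay between -0.04 and 0.10, and in NAc (limma, 0 of 7, 4 at an unadjusted p under 0.05 against 14% of miRNAs, 0.0867% of all passing) the highest were 0.31 for miR-199b-5p and 0.17 for miR-126a-3p (SE 0.05, limma adjusted p = 0.0919) and miR-221-3p (SE 0.05, adjusted p = 0.0712). edgeR and DESeq2 also gave 0 in both regions. miR-221-3p in NAc passed without TAL replicate 5 (adjusted p = 0.00926).

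In IPN, several ratios of miRNAs from one precursor or cluster lay in other ranges in TAL and NLWD mice than in TA, Nic and NAWD mice. The ratio of miR-145a-5p to miR-145a-3p averaged 1.38 in TA, 1.45 in Nic and 1.63 in NAWD mice, but 4.42 (3.53 to 5.70) in TAL and 9.98 (5.79 to 18.8) in NLWD mice. The ratio of miR-143-3p to miR-143-5p averaged 369.0 (262.9 to 453.0) in TA, 190.6 (177.5 to 204.4) in NAWD, 84.8 (78.2 to 93.1) in TAL and 59.0 (32.6 to 84.7) in NLWD mice. The ratio of miR-221-3p to miR-222-3p in IPN averaged 1.92 (1.64 to 2.39) in TA and 0.894 (0.836 to 0.940) in TAL mice, while in NAc the ratio stayed between 2.52 and 3.08 in all 25 libraries. These values are descriptions, with no test. In a direct comparison of TAL with TA mice, chosen after seeing the data, 6 of 7 members and 49.7% of all miRNAs passed in IPN, 1 of 7 and 4.67% in MHb and 0 of 7 and 6.8% in NAc. TAL and NLWD libraries were a separate set of mice of other age and treatment length.

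**Figure D4:**
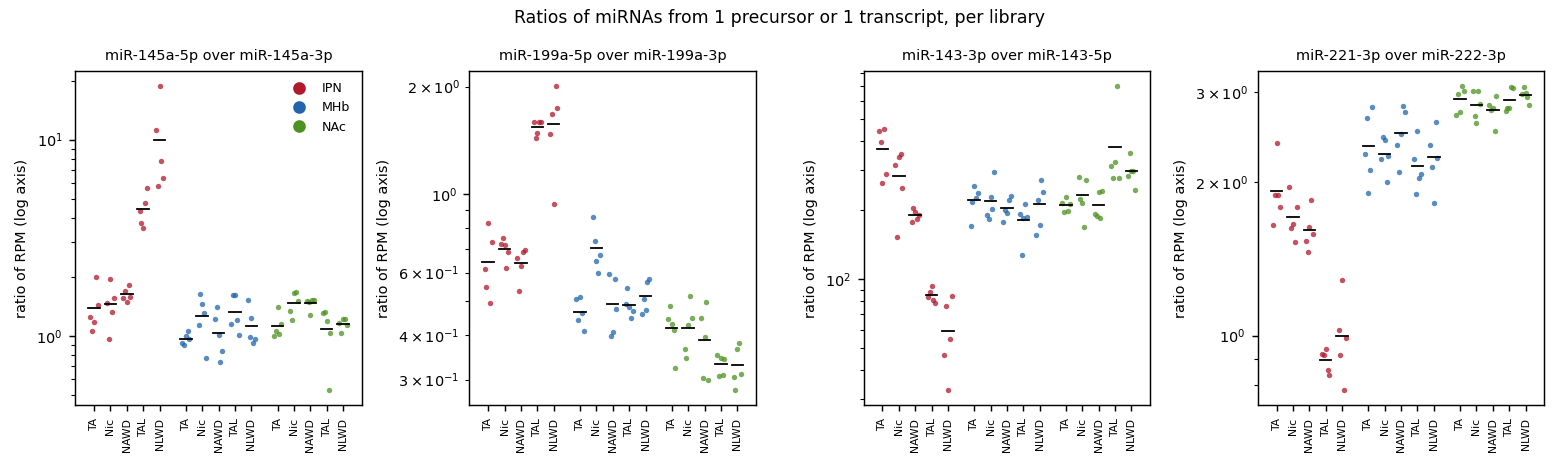
Ratio of RPM (log axis) per library, by region and treatment, of miR-145a-5p over miR-145a-3p, miR-199a-5p over miR-199a-3p, miR-143-3p over miR-143-5p and miR-221-3p over miR-222-3p, with a line at the mean of 5 libraries. In IPN the TAL mean of the first ratio is 4.42 against 1.38 in TA, and the TAL mean of the last is 0.894 against 1.92.

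By Pearson correlation of log2 values over 15 means, among 423 miRNAs averaging at least 10 RPM, the closest partner of miR-126a-3p was the member miR-199b-5p (r = 0.98) and that of both miR-221-3p (0.99) and miR-222-3p (0.98) was the arm miR-222-5p. The closest partners of miR-143-3p, miR-145a-5p and miR-199a-5p were no members: miR-134-5p (0.98), miR-150-5p (0.99) and miR-223-3p (0.98). miR-221-3p ran opposite to miR-199a-5p (r = -0.99). These values share the regional contrast and are given as a description. After removal of the group means from the 75 libraries, miR-221-3p and miR-222-3p were each other's closest partners (r = 0.78), and miR-199a-5p was closest to miR-199b-3p (0.72) and to miR-199a-3p (0.72), whereas miR-143-3p and miR-145a-5p, of one transcript, had r = -0.08 to each other.

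Hosts and known targets were read in the mRNA libraries, which numbered 5 per group in IPN for TA, Nic and NAWD but 3 for TAL and 2 for NLWD, 4 in MHb for TA, Nic and NAWD, and 4 for NAWD in NAc. By adjusted p under 0.01 and a fold over 2 none of these transcripts passed in any of the 12 comparisons (limma, 4 or 5 hosts and 9 or 10 targets tested). In the order Nic against TA, NAWD against TA, NAWD against Nic and NLWD against TAL, 0%, 0.0998%, 0.00555% and 0.0861% of all genes passed in IPN, 0%, 0.776%, 0.564% and 0.0059% in MHb, and 0.815%, 0%, 0.0175% and 0% in NAc. At an unadjusted p under 0.05 there were 0 to 4 hosts and 0 to 5 targets, and 6.24% to 30.7% of all genes, depending on the comparison. The most hosts were 4 of 4, with 1 of 10 targets, in MHb NAWD against Nic, beside 15.1% of all genes. The most targets were 5 of 10, with 1 of 4 hosts, in NAc Nic against TA, beside 30.7% of all genes. In IPN NAWD mice Spred1, a target of miR-126, averaged 7.25 ± 2.22 TPM against 16.9 ± 5.57 in TA (log2 -0.61, SE 0.20, limma adjusted p = 0.162), Pik3r2, the other miR-126 target, 35.4 ± 6.44 against 50.7 ± 20.6 TPM (log2 0.36 after removal of the factors, SE 0.14, adjusted p = 0.248), and Klf4, a target of miR-145, 0.662 ± 0.192 against 1.61 ± 0.234 TPM (log2 -0.45, SE 0.15, adjusted p = 0.158). Without factors of unwanted variation Spred1 passed (log2 -1.11, limma adjusted p = 0.00531), together with Dnm3 and Dyrk1a. In that fit Klf4 had a log2 value of -0.65 (adjusted p = 0.00550) and stayed under the required fold. The share of all genes passing without factors is not given, so these calls cannot be set against it. With pseudocount 0.1 the Klf4 value was -0.86 (adjusted p = 0.0771). NAWD libraries lay below TA libraries without overlap for 6 of the 15 host and target transcripts tested (Spred1, Klf4, Dnm3, Kit, Hif1a and Dyrk1a), where 22.1% of all genes separated so downward. Egfl7, the host of miR-126a, averaged 40.8 ± 10.998 TPM in NAWD and 76.3 ± 22.2 TPM in TA mice in IPN (log2 -0.23, adjusted p = 0.668).

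In MHb Egfl7 averaged 34.8 ± 4.43 TPM in NAWD against 12.3 ± 5.55 TPM in TA mice, without overlap, as did 4.15% of all genes upward (log2 1.33, SE 0.26, limma adjusted p = 0.0169). Dnm2, whose locus holds a miR-199a precursor, averaged 19.7 ± 4.49 against 8.46 ± 5.38 TPM (log2 0.96, SE 0.15, adjusted p = 0.00476, under the required fold). Dnm2 passed without TA replicate 1 (1.31, adjusted p = 0.0012) and Egfl7 without TA replicate 3 (0.00756). The authors took the longer RNA for mRNA libraries from the gel that gave the small RNA. Small RNA and mRNA libraries with the same region, treatment and number were matched. The labels do not state that equal numbers mark the same pool of mice. Over these pairs the within-group correlation of miR-126a-3p with Egfl7 was r = 0.23 (n = 20, permutation p = 0.396, adjusted p = 0.594, rho = 0.24, p = 0.355, adjusted p = 0.532) in IPN and r = -0.04 (n = 22, permutation p = 0.861 raw and adjusted, rho = -0.09, p = 0.706) in MHb. In NAc it was r = 0.35 (n = 23, permutation p = 0.106, adjusted p = 0.319, rho = 0.46, p = 0.0371, adjusted p = 0.111). Without the 2 libraries farthest from the median, r was 0.30 in IPN, -0.23 in MHb and 0.35 in NAc. Carmn and Dnm3os, hosts of miR-143 with miR-145a and of miR-199a, averaged at most 0.046 TPM and were not correlated.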

How the data were processed

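The authors deposited RPM per mature miRNA, from reads of which adapters were removed with cutadapt 1.11 and which were mapped with Bowtie 1.1.2, where a read matching several miRNAs was divided among them. They also deposited TPM per gene (STAR 2.5.3a, RSEM 1.3.0, mm10) and, per the file headers, read counts per library. Symbols matched 42462 of 43432 gene identifiers. Tables of the authors' own comparisons and 30 columns of group SDs were not used. RPM times the library total gave whole reads for 143025 of 143025 values (within 0.002), which were used for edgeR 4.0.16 and DESeq2 1.42.0 as alternatives.

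Values were tested with limma 3.58.1 (R 4.3.3) on log2(RPM + 1) or log2(TPM + 1), with factors of unwanted variation estimated from differences within groups (4 for IPN and MHb miRNAs, 3 for NAc, 1 or 2 for the long withdrawal and 1 or 2 for mRNA), for miRNAs above 0 in at least 0.5 of each group's libraries, and Benjamini-Hochberg adjustment over all features. All 7 members passed this filter in every comparison. A call needed an adjusted p under 0.01. Fold changes are on the log2(value + 1) scale, which understates low values. Members, gene lists and marker lists were chosen with earlier results of these data known. The rule named all 7 members, with full statistics where the unadjusted p was under 0.01. TAL against TA was compared after seeing the data. Code was tested on simulated data. No libraries of the same region and treatment were duplicates (smallest chi-square per degree of freedom 25.8 over 150 pairs), and pairs across groups were not checked. Alternatives were another pseudocount, filters, no factors or 1 factor, quantile and TMM scaling, a replicate block and leaving out each library.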

Additional observations from a re-analysis of the deposited data

Results flagged for a closer look

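Single libraries stood apart from the other 4 of their group for 10 of the 105 member and group combinations, by Dixon's test at the 95% level (critical value 0.71 for 5 libraries), where chance gives about 1 in 20. In IPN, miR-145a-5p measured 897.3 RPM in TAL replicate 3 against 1129 to 1171 RPM, and miR-221-3p measured 2173 RPM in TA replicate 3 (others 1495 to 1636 RPM) and 2170.3 RPM in NAWD replicate 4 (others 1360.3 to 1576 RPM). In MHb, miR-145a-5p measured 96.9 RPM in TA replicate 5 (others 75.3 to 81.1 RPM), miR-221-3p 4061 RPM in TAL replicate 3 (others 3254 to 3459 RPM) and miR-222-3p 2495 RPM in NLWD replicate 1 (others 1451 to 1651 RPM). In NAc, Nic replicate 4 was high for miR-199b-5p (8.19 RPM, others 3.77 to 5.02 RPM) and for miR-221-3p (15477 RPM, others 10782 to 11360.1 RPM), miR-143-3p measured 6009.7 RPM in TAL replicate 4 (others 4292 to 4725 RPM), and miR-126a-3p measured 1476 RPM in NLWD replicate 5 (others 1655 to 1714 RPM).

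The change from TA to NAWD differed between regions, by the interaction of region and treatment, for miR-126a-3p (log2 difference 0.83 for IPN minus MHb and 0.60 for IPN minus NAc) and for miR-199b-5p (0.96 and 1.22).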

How the results depend on the processing

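The call of miR-199b-5p in IPN NAWD mice held against TA and Nic under all 11 other settings (log2 1.09 to 1.47 against TA) and all 15 omissions of 1 library (1.03 to 1.33). Without a filter on low values 1 member passed in IPN NAWD against TA and 1 against Nic. Without factors of unwanted variation 1 member passed in IPN NAWD against Nic and 1 in the IPN minus NAc difference, 3 host or target transcripts (Spred1, Dnm3 and Dyrk1a) passed in IPN NAWD against TA, 9 against Nic and 2 in MHb NAWD against Nic, and Hif1a in NAc NAWD against TA turned from 0.43 to -0.14. The share of all genes passing without factors is not given for these transcript counts. In IPN NAWD against Nic, 12 of 15 hosts and targets and 51.7% of all genes separated downward without overlap. In MHb NAWD against Nic, 5 of 14 and 25.9% separated upward. The single MHb NAWD against Nic call became 0 with pseudocount 0.1, no filter, a mean of at least 10 RPM, no factors, 1 factor, quantile normalization and TMM scaling. In MHb Nic against TA 3 members passed in edgeR and 3 in DESeq2, with no share of all miRNAs given for these tools. In MHb TAL against TA, 0 members passed under quantile normalization, 2 under TMM scaling and 2 in edgeR, with no share of all miRNAs given for these settings. With pseudocount 0.1, 1 transcript passed in MHb NAWD against TA and 1 against Nic, where 1 also passed at a mean of at least 1 TPM. With group means kept, the correlation of miR-126a-3p with Egfl7 in IPN was -0.54. The causes were not tested.

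Same-numbered libraries did not deviate together (correlations -0.59 to 0.46), and a replicate block gave 2 members in MHb Nic against TA (miR-221-3p and miR-222-3p) and 0 in MHb TAL against TA, and changed no other count of members. No share of all miRNAs is given for these MHb counts or for the fits below that left out 1 library. Leaving out 1 library gave 1 to 3 members in IPN NAWD against TA, 2 to 3 in IPN NAWD against Nic, 0 to 3 in MHb Nic against TA, 0 to 2 in MHb NAWD against Nic, 0 to 1 in NAc NLWD against TAL, 0 to 2 in MHb TAL against TA, 1 to 2 in the IPN minus MHb and 1 to 3 in the IPN minus NAc difference. For transcripts it gave 0 to 1 in MHb NAWD against TA, 0 to 2 in MHb NAWD against Nic and 0 to 1 in NAc Nic against TA. All miRNAs called in IPN NAWD against TA numbered 45, against 114 with pseudocount 0.1, 16 with no filter, 18 at a mean of at least 10 RPM and 136 with only the groups compared; against Nic 57, 25 with no filter, 8 with no factors and 21 with 1 factor; and in MHb NAWD against Nic 59, 31 with pseudocount 0.1, 31 with no filter, 35 at a mean of at least 10 RPM, 7 with no factors and 15 with 1 factor. Depth limits miR-199b-5p in NAc most, with as few as 36 reads in a library.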

Other observations

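The comparison of TAL with TA mice was chosen after seeing the data and fitted without factors of unwanted variation, and age, weeks of drinking and library set cannot be told apart in it. In IPN, 49.7% of 981 miRNAs passed, and the median of all miRNAs moved by 0.14 on the log2 scale, with 342 higher and 146 lower against 270 and 208 under TMM scaling and 232 and 225 under quantile normalization. 6 members passed under these scalings too: miR-199b-5p (log2 fold change 2.34, SE 0.20, limma adjusted p = 1.34e-07, 18.5 ± 6.11 to 95.1 ± 16.3 RPM), miR-145a-5p (1.75), miR-199a-5p (1.36) and miR-126a-3p (1.099) were higher, and miR-221-3p (-0.95) and miR-143-3p (-0.60) were lower, while miR-222-3p (0.14) did not pass. In IPN the endothelial TPM sum was 123.4 to 152.6 in TAL against 310.6 to 646.3 in TA mice, with 9 of 10 genes lower. Lower means were also seen in 9 of 10 mural, 7 of 8 fibroblast, 7 of 7 choroid plexus, 4 of 4 MHb, 4 of 4 NAc and 3 of 4 IPN marker genes. The erythroid list went the other way, with 5 of 5 genes higher. These TAL values rest on 3 mRNA libraries.

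In MHb 4.67% of 899 miRNAs passed and 1 member did, miR-222-3p (log2 0.44, SE 0.09, limma adjusted p = 0.00346), which was lost without TA replicate 2 (0.0116) or TA replicate 4 (0.0121), while miR-221-3p passed without TA replicate 5 (0.00474). In NAc 6.8% of 1030 miRNAs passed and 0 members did (limma, 1 of 7 at an unadjusted p under 0.05, 0 by edgeR).

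The miR-199a-5p to miR-199b-5p ratio in IPN averaged 6.14 in TA, 6.12 in Nic, 3.13 in NAWD, 2.94 in TAL and 3.38 in NLWD mice, without a test. In NAc, Pik3r2, a target of miR-126, had log2 values of -0.95 (limma adjusted p = 0.0177) in Nic and -0.79 in NAWD against TA mice. It passed in Nic against TA without TA replicate 2 (0.0045) or NAWD replicate 4 (0.00788).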
